A study of Mus musculus with 4 samples.

Results

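The 10 genes described here encode transcription regulators used to tell exhausted from stem-like T cells: Tox, Tox2, Tcf7, Lef1, Nr4a2, Nr4a3, Batf, Id2, Id3 and Bach2. They were picked by symbol and not by level, and all 10 were among the 32285 genes of the count matrices. Transcripts of single cells were counted from mouse tumours of OV2944-HM1 (HM1), an ovarian cancer line grown under the skin of B6C3F1 mice 6 to 8 weeks old, after beads against the leukocyte protein CD45 had enriched the cells. The control group received vehicle, and the IL_27 group received 100 ng of recombinant mouse interleukin 27 into the tumour every other day. Cells of both groups were taken on day 14. Of 4 entries in the labels, 2 belong to each group, but a group has 1 matrix whose cells cannot be traced to an entry. Each group therefore counts as 1 sample, no difference has a replicate check, and no p-value is given. The title of the series names fragility of regulatory T cells (Tregs) under interleukin 27 and checkpoint blockade in ovarian cancer.

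Exhausted T cells arise under lasting antigen stimulation, when NFAT acts without enough AP-1 partners and turns on Tox and the Nr4a nuclear receptors. Tcf7, which encodes TCF-1, and Lef1 keep naive, memory and stem-like T cells able to renew, and Bach2 holds effector genes down in such cells. Batf pairs with Jun and IRF proteins in activated T cells and Tregs. Id2 and Id3 block E proteins, with Id2 tied to effector and innate lymphoid cells and Id3 to memory cells.

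After filtering, 10617 and 9990 cells remained in control and IL_27. Classes were set by UMIs (unique molecular identifiers, 1 per captured transcript) of marker genes and not by clusters, and none of the 10 genes was a marker. T cells had at least 2 UMIs of Cd3d, Cd3e and Cd3g, and more of these than of 9 genes of other lineages. The Treg class (a Foxp3 UMI, no Cd8 UMI) had 229 and 309 cells, the CD8 class 270 and 101, the CD4 class without Foxp3 55 and 124, the natural killer (NK) class 56 and 81, gamma-delta T cells 12 and 14, and unplaced T cells 123 and 144. Unplaced T cells had none of the placing UMIs or a mix of them, such as Foxp3 with a Cd8 gene. A Treg whose Foxp3 was not captured falls in the CD4 class or stays unplaced. T and NK cells made up 7.02% and 7.74% of kept cells. Median UMIs per cell were 5542 and 4761 in Tregs, 8191 and 7278 in CD8 cells, 4391 and 4077 in CD4 cells and 5467 and 4505 in NK cells, so each of these classes was shallower in IL_27. The matrices shared 133 barcodes, of which 11 in each lay in T or NK classes, and no doublets were removed from the values below. UMIs of the 9 other-lineage genes summed to 105 and 57.3 per 1000000 in Tregs and 50.3 and 51.1 in CD8 cells. Levels are UMIs per 1000000 UMIs of the class (CPM) in control and then IL_27, ratios are IL_27 over control unless said otherwise, and brackets give 95% intervals that cover counting error only. A lower level in a class cannot be told apart from fewer cells of a subtype within it.

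RefSeq promoter windows (build GRCm38.p6) were found for 9 of the 10 genes, all but Tox, and the 250 bases before each start were searched on both strands. The letters searched were the half-site of the cyclic AMP response element (TGACG, bound by CREB and ATF proteins), an AP-1 site (TGANTCA), a TCF/LEF site (CTTTGA) and an E-box (CANNTG). The first set shows Nr4a3 (chr4:48045055-48045304, plus strand), Nr4a2 (chr2:57124004-57124253, minus strand) and Batf (chr12:85686470-85686719, plus strand), because both Nr4a genes and Batf carry differences described below. Capitals mark the half-site on either strand.
Nr4a3: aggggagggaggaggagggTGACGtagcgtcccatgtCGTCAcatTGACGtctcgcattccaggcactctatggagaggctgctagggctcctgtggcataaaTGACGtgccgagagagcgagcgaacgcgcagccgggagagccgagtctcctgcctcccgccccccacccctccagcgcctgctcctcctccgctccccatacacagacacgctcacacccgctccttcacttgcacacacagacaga
Nr4a2: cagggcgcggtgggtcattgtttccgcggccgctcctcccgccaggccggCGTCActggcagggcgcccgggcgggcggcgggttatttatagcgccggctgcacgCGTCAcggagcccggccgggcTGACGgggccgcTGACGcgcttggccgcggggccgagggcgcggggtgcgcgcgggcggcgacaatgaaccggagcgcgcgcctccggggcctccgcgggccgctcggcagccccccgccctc
Batf: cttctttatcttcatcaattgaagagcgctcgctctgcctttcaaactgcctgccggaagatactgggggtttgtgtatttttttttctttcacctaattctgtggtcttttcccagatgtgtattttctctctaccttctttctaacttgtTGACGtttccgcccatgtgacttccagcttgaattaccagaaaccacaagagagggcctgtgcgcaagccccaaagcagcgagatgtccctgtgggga
Nr4a3 and Nr4a2 had 4 matches each and Batf had 1. Of 32851 windows of this length, 17.8% had a match and 0.137% had at least 4. None of these 3 windows held the AP-1 letters, which 6.75% of all windows did.

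The next pair shows 1 of the 4 windows of Lef1 (chr3:131156044-131156293, plus strand) and the window of Bach2 (chr4:32417185-32417434, plus strand), whose levels are set beside those of Tcf7 below. Capitals mark the TCF/LEF letters on either strand.
Lef1: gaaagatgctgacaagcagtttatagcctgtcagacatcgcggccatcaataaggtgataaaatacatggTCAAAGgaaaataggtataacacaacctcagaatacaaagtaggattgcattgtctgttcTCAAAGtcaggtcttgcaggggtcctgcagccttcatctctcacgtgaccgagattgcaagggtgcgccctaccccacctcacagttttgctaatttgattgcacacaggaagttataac
Bach2: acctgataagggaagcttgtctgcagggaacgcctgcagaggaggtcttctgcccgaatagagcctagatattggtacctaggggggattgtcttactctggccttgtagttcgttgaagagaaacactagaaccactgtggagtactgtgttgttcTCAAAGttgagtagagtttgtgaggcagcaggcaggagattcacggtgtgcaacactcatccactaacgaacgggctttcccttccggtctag
Lef1 had 2 matches here and 0 in its other windows, and Bach2 had 1. Both windows shown lie within the span of the gene and not before its first start. Of all windows 13.8% had a match, a share per window and not per gene, and Lef1 had 4 windows. Of the 9 genes with windows 3 had a match, the other being Tox2, and the Tcf7 windows had none. E-box letters, the core bound by the E proteins that Id2 and Id3 block, were in 66.2% of windows. A match is a run of letters and not a measured binding site.

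The 10 genes did not move as one between the groups. A gene was counted in a class where it had 20 UMIs or more over both matrices, and called where IL_27 and control differed 1.5-fold or more. In Tregs Nr4a3 was higher and Tox2 and Bach2 were lower, 3 of 9 counted, against 20.2% of 9472 genes. In CD8 cells Tcf7, Lef1 and Nr4a3 were higher and Tox was lower, 4 of 8, against 23.7% of 9146 genes. In CD4 cells without Foxp3 Lef1 was higher and Tox, Batf and Bach2 were lower, 4 of 9, against 32.3% of 5729 genes. In NK cells 0 of 7 were called, against 30.4% of 5452 genes. The median log2 ratio of the counted factors was -0.01 in Tregs, 0.13 in CD8 cells, -0.06 in CD4 cells and 0.06 in NK cells, beside -0.02, -0.03, 0.05 and -0.06 for all genes.

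**Figure D1:**
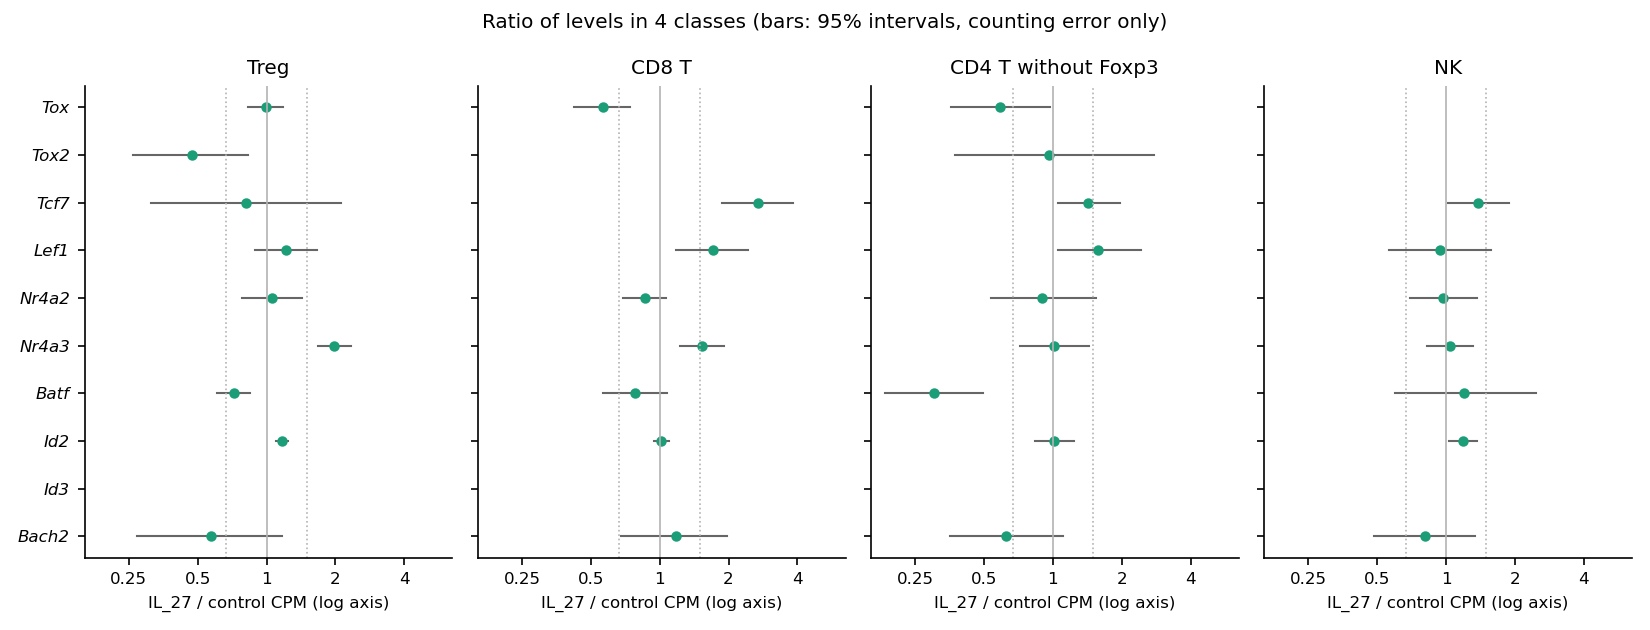
Ratio of the level in IL_27 to that in control (log scale) for each factor in 4 classes, with 95% intervals for counting error. Nr4a3 stands at 1.98 in Tregs, Tcf7 at 2.68 in CD8 cells and Batf at 0.303 in CD4 cells without Foxp3.

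Tox (chr4:6686353-6991557, as all gene positions here on GRCm38) encodes the DNA-binding protein that sets and keeps the exhausted state of CD8 T cells. In Tregs its level was 129.7 CPM (114 to 147) in control and 128 (114 to 145) in IL_27, with a UMI in 50.7% and 47.9% of cells. In CD8 cells it was 120.2 CPM (108 to 134) in control and 67.7 (51.8 to 86.97) in IL_27, a ratio of 0.563 (0.422 to 0.742). The intervals overlapped in Tregs and were apart in CD8 cells, where IL_27 was lower. With cells thinned to 1000 UMIs before the classes were set, Tregs kept 12 and 31 Tox UMIs and the log2 ratio was 0.90, higher in IL_27, beside -0.01 without thinning. CD4 cells without Foxp3 had 106 CPM (71.3 to 151) in control and 62.3 (44.9 to 84.2) in IL_27, a ratio of 0.589 (0.360 to 0.975). NK cells, which use Tox during development, had 19.7 and 21.2 CPM. Outside T and NK cells Tox was at the edge of detection: 4 of 4334 and 1 of 3276 neutrophil-like cells had a UMI (0.0923% and 0.0305%, at medians of 2284 and 1725 UMIs), and tumour-like cells had 0 UMIs, which allows up to 0.287 and 0.321 CPM.

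The share of CD8 cells with a Tox UMI was 55.2% (49.04 to 61.2) in control and 32.7% (23.7 to 42.7) in IL_27. With each cell thinned to 1000 UMIs it was 11.2% (7.68 to 15.6) in control and 10.1% (4.95 to 17.8) in IL_27, so a difference in the share was not detectable at that depth. Giving each cell equal weight left the log2 ratio at -0.69, beside -0.83 for summed UMIs. When cells were thinned before the classes were set, 178 and 58 CD8 cells with 24 and 9 Tox UMIs remained and the log2 ratio was 0.20, the opposite sign.

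Tox2 (chr2:163203125-163324170), a relative of Tox known from follicular helper T cells, had few UMIs in every class. Tregs had 38 and 20 UMIs, or 20.2 CPM (14.3 to 27.7) in control and 9.55 (5.83 to 14.8) in IL_27, a ratio of 0.473 (0.261 to 0.833). CD4 cells without Foxp3 had 24.7 and 23.7 CPM. CD8 cells had 8 and 3 UMIs and NK cells 0 in both matrices, which allows up to 7.40 and 5.79 CPM. Unlike Tox, which was alike in control Tregs and control CD8 cells, Tox2 in control was 7.12 (3.27 to 17.7) times as high in Tregs as in CD8 cells. In IL_27 that ratio was 2.87 (0.851 to 15.1), an interval that spans 1.

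Tcf7 (chr11:52252371-52283014) was high in CD4 cells without Foxp3 and NK cells and nearly absent from Tregs. CD4 cells had 194 CPM (146 to 252) in control and 277 (239 to 320.02) in IL_27, a ratio of 1.43 (1.05 to 1.97). NK cells had 168 CPM (130.3 to 213) in control and 232 (192 to 277) in IL_27, a ratio of 1.38 (1.02 to 1.89). In both classes IL_27 was the higher matrix, by less than 1.5-fold. Tregs had 11 and 10 UMIs, or 5.85 CPM (2.92 to 10.5) and 4.78 (2.29 to 8.78). CD4 cells without Foxp3 exceeded Tregs 33.2-fold (17.2 to 70.3) in control and 58.1-fold (30.9 to 123) in IL_27.

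In CD8 cells Tcf7 was at 24.8 CPM (19.3 to 31.4) in control and 66.6 (50.8 to 85.7) in IL_27, a ratio of 2.68 (1.87 to 3.84). Of the 60 IL_27 UMIs, 17 came from 1 cell with 41486 UMIs in all. Without the cell with most Tcf7 UMIs in each matrix the levels were 22.7 and 50.03 CPM, a ratio of 2.20. The share of CD8 cells with a Tcf7 UMI was 12.6% (8.88 to 17.2) in control and 15.8% (9.33 to 24.4) in IL_27, and 4.48% and 3.03% after thinning to 1000 UMIs. The summed level was higher in IL_27, while a difference in the number of positive cells was not detectable at this depth. With cells thinned before the classes were set, 10 and 1 Tcf7 UMIs were left, or 56.2 and 17.2 CPM, which is lower in IL_27 and too few to be counted. Neutrophil-like cells, a background class, had a Tcf7 UMI in 0.392% and 0.214% of cells.

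Tcf7 was also counted outside lymphocytes. Mature dendritic-like cells had 28.1 CPM (21.2 to 36.6) in control and 48.7 (40.1 to 58.7) in IL_27, a ratio of 1.73 (1.24 to 2.44), and tumour-like cells had 19.7 and 17.3 CPM. Neither class had a Lef1 or a Tox UMI. A count of 0 allows up to 1.53 and 1.32 CPM in mature dendritic-like cells.

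Lef1 (chr3:131110471-131224356), the partner of TCF-1, was found almost solely in T and NK classes. CD4 cells without Foxp3 had 109 CPM (74.2 to 155) in control and 172 (142 to 206) in IL_27, a ratio of 1.57 (1.05 to 2.42). CD8 cells had 31.9 CPM (25.7 to 39.2) in control and 54.4 (40.2 to 71.9) in IL_27, a ratio of 1.70 (1.18 to 2.44), with a UMI in 18.5% and 27.7% of cells. Both classes were thus higher in IL_27. Tregs had 39.3 and 47.8 CPM with a ratio whose interval spans 1, 1.21 (0.890 to 1.66), and NK cells had 74.01 and 69.5 CPM. Neutrophil-like cells had 1 and 2 UMIs of Lef1 in all.

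Bach2 (chr4:32238804-32586108), a repressor of effector genes, was likewise higher in CD4 and NK cells than in CD8 cells and Tregs. CD4 cells without Foxp3 had 81.1 and 50.4 CPM, NK cells 81.4 and 65.6 CPM, CD8 cells 19.9 and 23.3 CPM and Tregs 11.7 and 6.69 CPM. CD4 cells exceeded Tregs 6.93-fold (3.69 to 13.04) in control and 7.54-fold (3.94 to 15.2) in IL_27. The IL_27 over control ratio was 0.572 (0.271 to 1.17) in Tregs and 0.622 (0.356 to 1.11) in CD4 cells, and although both count as calls above, both intervals span 1.

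**Figure D2:**
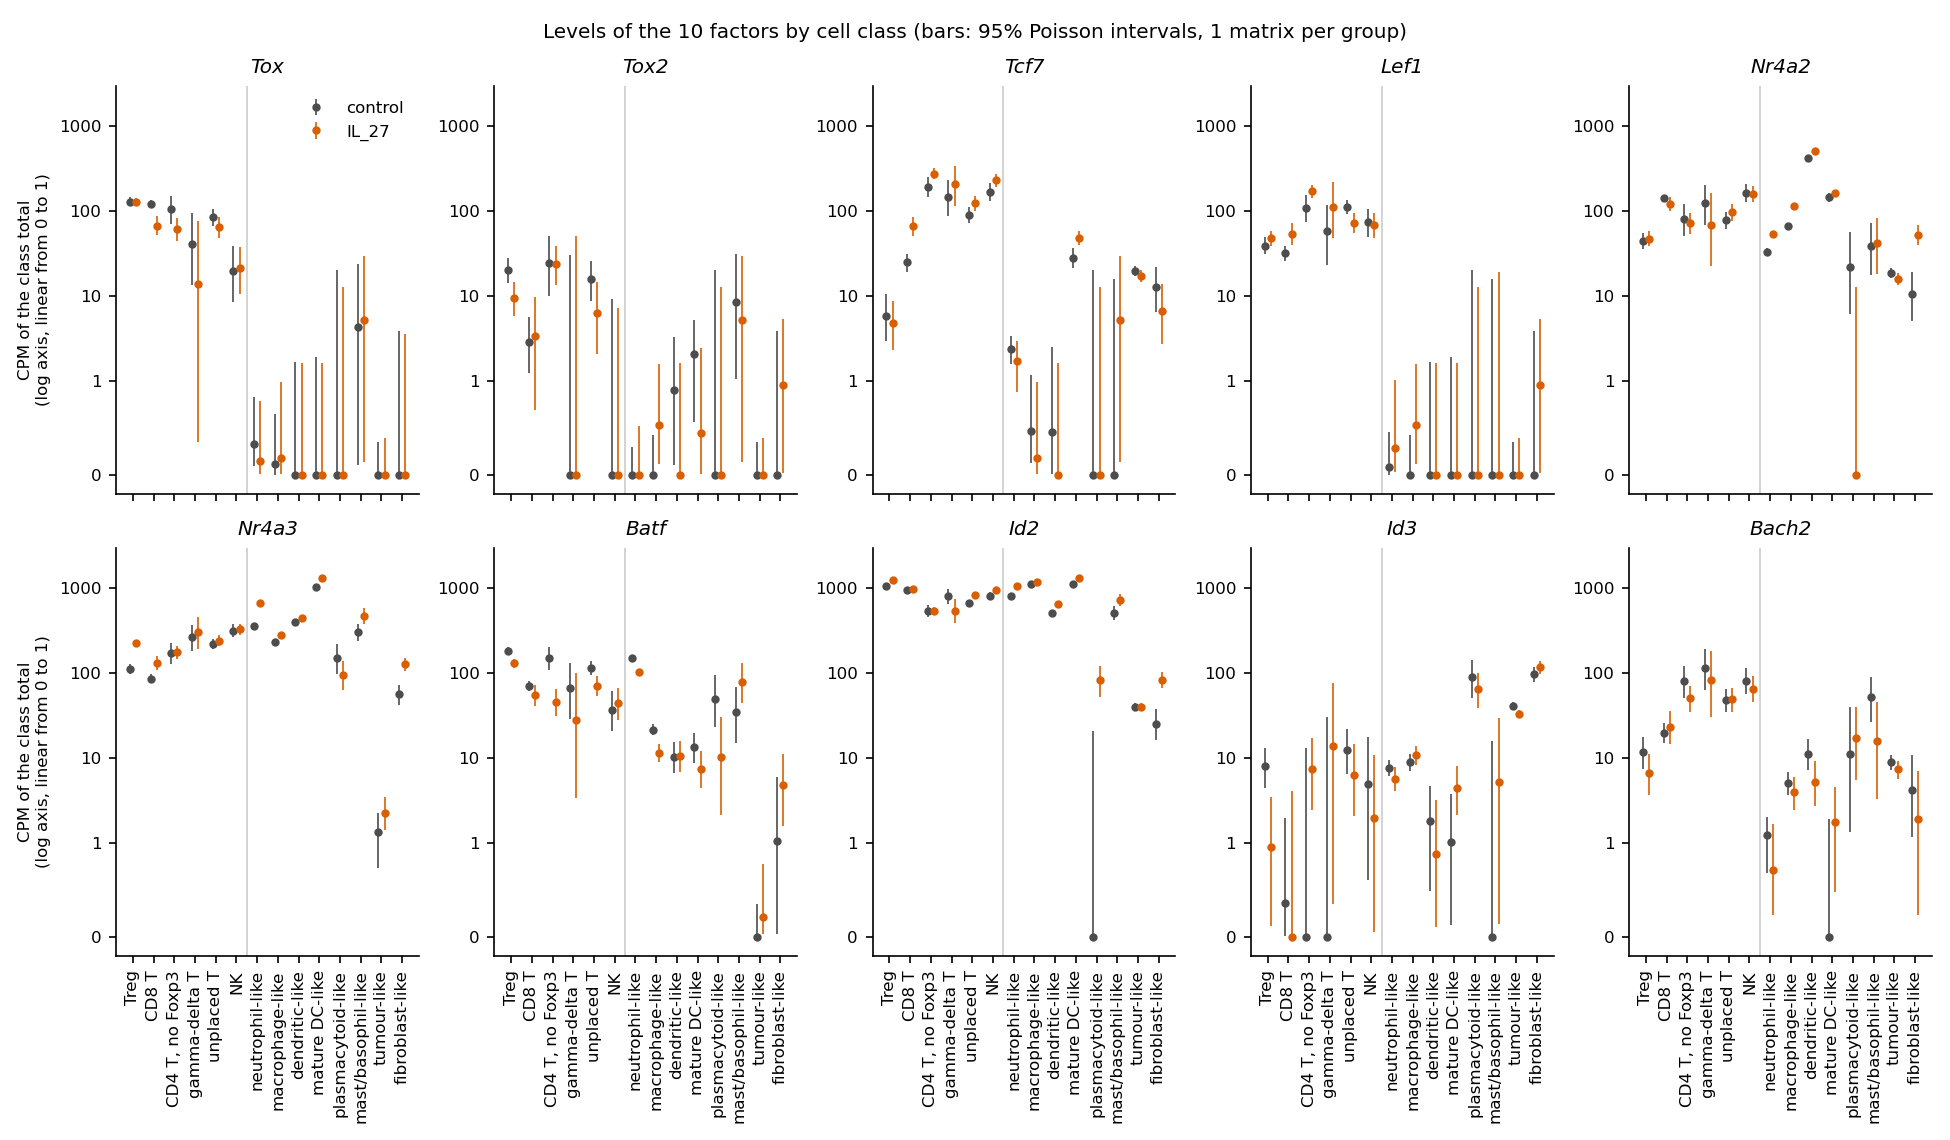
Level of each factor (CPM, log axis that is linear from 0 to 1) in the T and NK classes and in other classes, for control and IL_27, with 95% Poisson intervals. Tox and Lef1 are near 0 outside T and NK cells, Tcf7 dips in Tregs to 5.85 and 4.78 CPM, and Nr4a3 and Id2 are spread over most immune classes.

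Differences between classes were compared within each matrix and counted where both matrices passed 1.5-fold. Treg over CD8 was called for 5 of 9 counted factors, Tox2 and Batf higher and Tcf7, Nr4a2 and Bach2 lower, against 18.4% of 8822 genes. NK over CD8 was called for 4 of 8, Tcf7, Nr4a3 and Bach2 higher and Tox lower, against 18.6% of 6865 genes. CD4 without Foxp3 over Treg was called for 5 of 9, Tcf7, Lef1, Nr4a2 and Bach2 higher and Id2 lower, against 15% of 7935 genes. CD4 without Foxp3 over CD8 was called for 5 of 8, Tcf7, Lef1 and Bach2 higher and Nr4a2 and Id2 lower, against 19.2% of 7183 genes. Tcf7 and Bach2 were in all 4 counts.

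Within the CD8 class the stem-like and effector factors were unevenly spread over the cells of the control matrix. Lef1 was at 126 CPM (87.9 to 174) in cells with a Tcf7 UMI and 21.3 (16.01 to 27.8) in those without, over 34 and 236 cells, and Bach2 at 97.7 CPM (64.9 to 141) in cells with a Tcf7 UMI and 11.1 (7.34 to 15.97) in those without. Tox went the other way, at 45.3 CPM (24.1 to 77.5) in cells with a Tcf7 UMI and 129 (115 to 143) in those without, as did Id2 at 299.9 CPM (239.9 to 370.4) in cells with a Tcf7 UMI and 1029 (989.7 to 1069) in those without. None of these 4 pairs of intervals overlapped, and the medians were 6439 UMIs in cells with Tcf7 and 8428 in those without.

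In IL_27 the 16 CD8 cells with a Tcf7 UMI differed from the 85 without in Id2, at 371 CPM (269.9 to 499) in cells with a Tcf7 UMI and 1061 (989.7 to 1135) in those without. Lef1 was at 59.1 CPM (23.8 to 122) in cells with a Tcf7 UMI and 53.7 (38.7 to 72.5) in those without, and Tox at 42.2 CPM (13.7 to 98.5) in cells with a Tcf7 UMI and 71.6 (54.1 to 92.9) in those without, both with overlapping intervals. In CD4 cells without Foxp3 Lef1 and Id2 had intervals apart in both matrices. Lef1 was at 182 CPM (116 to 270.2) in cells with a Tcf7 UMI and 46.2 (18.6 to 95.2) in those without in control, and at 272 CPM (221 to 332) in cells with a Tcf7 UMI and 59.7 (35.95 to 93.3) in those without in IL_27. Id2 was at 279.95 CPM (197 to 386) in cells with a Tcf7 UMI and 765 (632 to 918) in those without in control, and at 286 CPM (234 to 348) in cells with a Tcf7 UMI and 839 (741 to 946) in those without in IL_27. Bach2, at 113 CPM (63.5 to 187) in cells with a Tcf7 UMI and 52.8 (22.8 to 104) in those without in control and at 70.2 CPM (45.4 to 104) in cells with a Tcf7 UMI and 28.3 (12.9 to 53.7) in those without in IL_27, had overlapping intervals in each. Tox in CD4 cells was at 60.5 CPM (26.1 to 119) in cells with a Tcf7 UMI and 145 (90.96 to 219.8) in those without in control, and at 5.62 CPM (0.680 to 20.3) in cells with a Tcf7 UMI and 126 (89.8 to 171) in those without in IL_27. The Tox intervals were apart in IL_27 and overlapped in control. In NK cells, where Tcf7 is normally present, Lef1 was at 85.4 CPM (52.2 to 132) in cells with a Tcf7 UMI and 58.4 (28.01 to 107) in those without in control and at 62.1 CPM (37.4 to 96.9) in cells with a Tcf7 UMI and 80.2 (46.7 to 128) in those without in IL_27, with overlap in each.

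**Figure D3:**
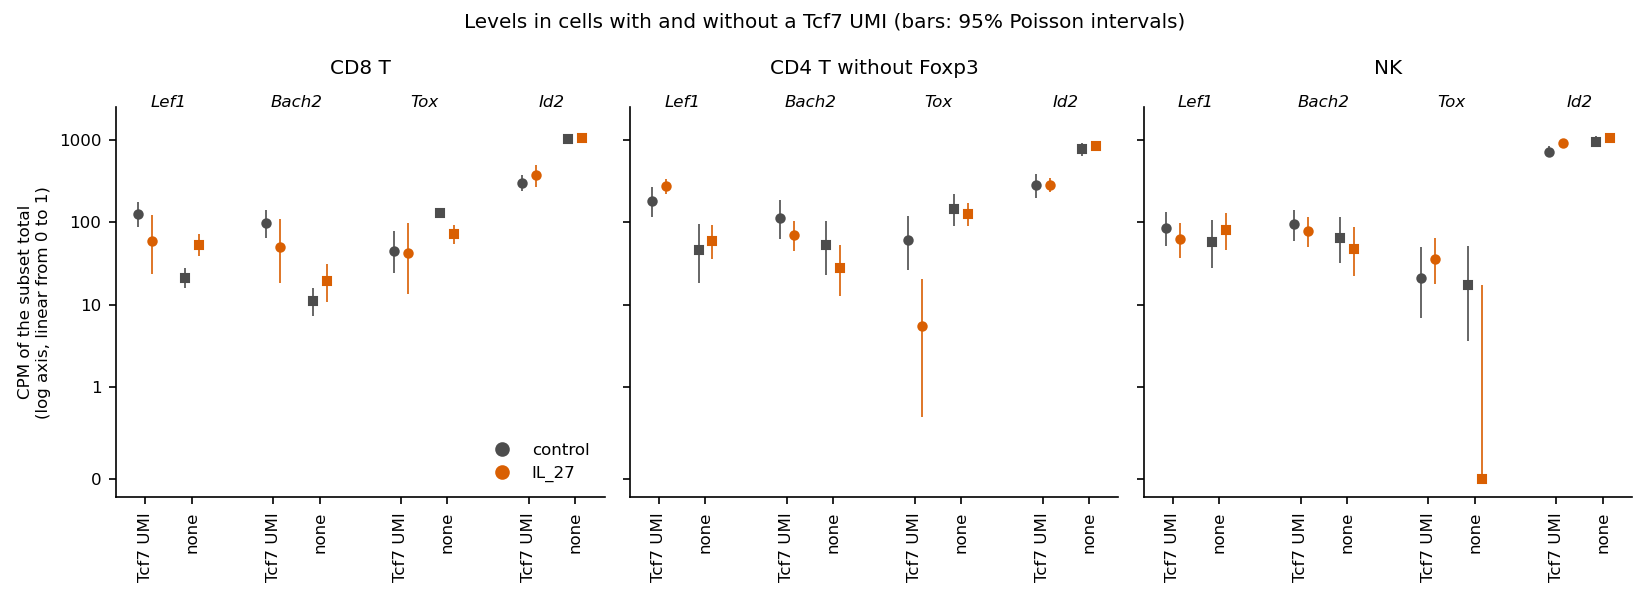
Level of other factors (CPM, log axis that is linear from 0 to 1) in cells with and without a Tcf7 UMI in 3 classes, control in grey and IL_27 in orange, with 95% Poisson intervals. In CD8 cells Id2 is lower where Tcf7 is present, at 299.9 against 1029 CPM in control.

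CD8 cells were next split by checkpoint receptors, with UMIs of at least 2 of the 5 genes Pdcd1, Havcr2, Lag3, Tigit and Entpd1. The set with receptors had 237 and 83 cells and the set without 33 and 18, at medians of 8752 and 8137 against 4704 and 3392 UMIs. In both matrices Tox and Id2 were higher and Tcf7, Lef1 and Bach2 lower in cells with receptors, by at least 1.5-fold. All factors but Tox2 and Id3 were counted, with 20 UMIs or more in each matrix. Of genes so counted, 19.8% of 5559 were called in either direction. Tox was at 126 against 33.5 CPM in control and 71.5 against 16.3 in IL_27, where the set without receptors had 1 UMI. Tcf7 was at 17.4 against 134 CPM in control and 51.2 against 277 in IL_27, and Lef1 at 21.6 against 184 and 44.1 against 196. Cells without receptors were shallower, and the part of depth in this split was not tested.

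Among CD8 cells with receptors the IL_27 over control ratio was 0.567 (0.423 to 0.748) for Tox, 2.94 (1.89 to 4.56) for Tcf7, 2.04 (1.31 to 3.14) for Lef1 and 1.59 (1.25 to 2.02) for Nr4a3. These 4 are the factors already called in the whole CD8 class, of which cells with receptors were 87.8% and 82.2%. That all 4 are past 1.5-fold here too is therefore not separate support. In these cells 24.1% of 9002 genes were called in either direction. The Nr4a3 call rests on 1 cell: 24 of the 109 IL_27 UMIs were in a cell whose barcode is found in both matrices. In 2 alternatives chosen after seeing the data, the Nr4a3 ratio was 1.30 without the top cell of each matrix and 1.26 without shared barcodes. Tox, Tcf7 and Lef1 stayed past 1.5-fold in both. Thinning before the classes were set was not run for this set. In the whole CD8 class it gave the opposite direction for Tox, at 134.8 and 155.2 CPM, and for Tcf7, at 56.2 and 17.2 CPM. Tcf7 was seen in 20 of 237 and 8 of 83 of them, and 17 of the 43 IL_27 UMIs were those of the single cell described above.

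The CD8 cells of the matrices differed in their leading T cell receptor beta V segment, which does not by itself identify a clone. Cells led by Trbv16 numbered 94 and 7 and cells led by Trbv4 43 and 45. Within Trbv4 cells Tox was at 161 CPM (128 to 200.04) in control and 72.7 (51.5 to 99.8) in IL_27, a ratio of 0.451 (0.299 to 0.671), where 27.6% of 5930 genes were called. In cells with another or no leading segment the Tox ratio was 0.367 (0.178 to 0.682), where 32.2% of 7108 genes were called. By summed UMIs Tox was therefore lower in IL_27 within both of these sets. The 7 Trbv16 cells of IL_27, with 12 UMIs, gave a ratio of 1.60 (0.808 to 2.88). With each cell thinned as above, 13.95% (5.30 to 27.9) of Trbv4 cells had a Tox UMI in control and 15.6% (6.49 to 29.5) in IL_27. In cells with another or no segment the shares were 7.63% (3.72 to 13.6) in control and 4.26% (0.520 to 14.5) in IL_27. The intervals overlapped in each set, so a difference in the share was not detectable at that depth. Tcf7 in Trbv4 cells had 3 and 18 UMIs, of which 17 in IL_27 were in 1 cell, and 2 of 43 and 2 of 45 cells were positive. In cells with another or no segment Tcf7 was at 51.1 CPM (38.97 to 65.7) in control and 115 (81.3 to 159) in IL_27, a ratio of 2.26 (1.46 to 3.46), with 30 of 133 and 12 of 49 cells positive. The ratio of Lef1 was 1.27 (0.583 to 2.85) in Trbv4 cells and 1.49 (0.923 to 2.34) in cells with another or no segment, so both intervals span 1.

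**Figure D4:**
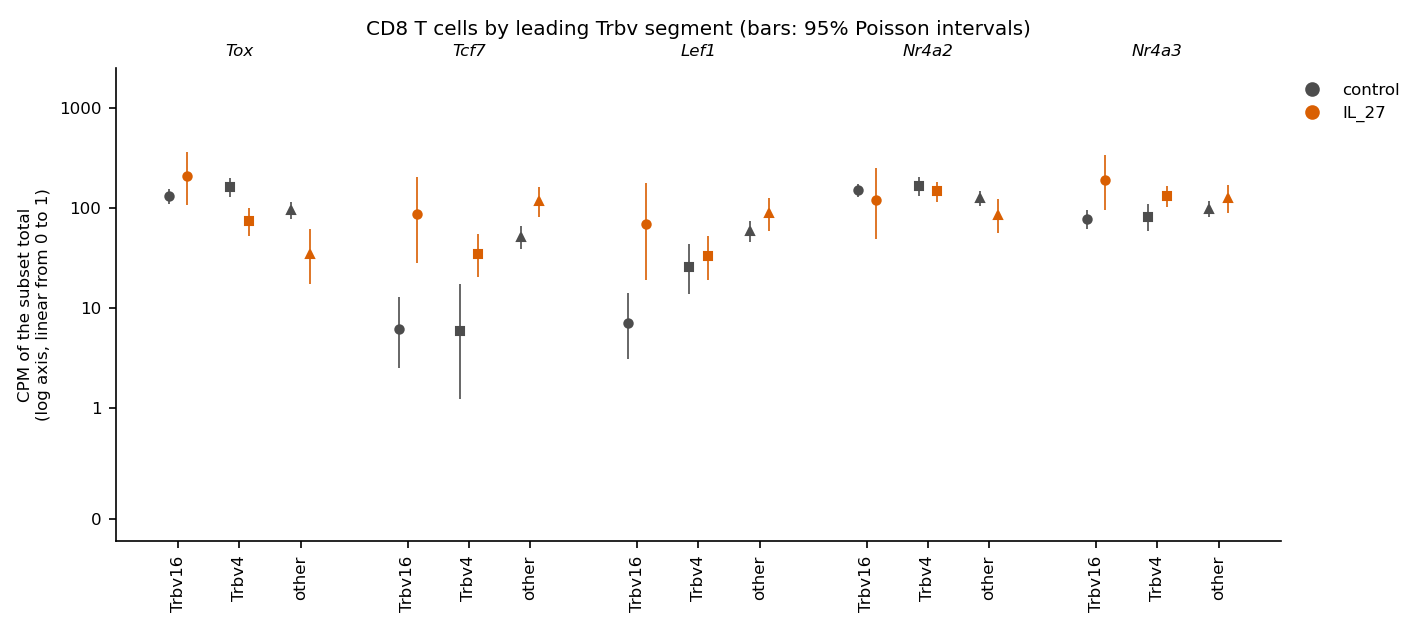
Level of factors (CPM, log axis that is linear from 0 to 1) in CD8 cells by leading Trbv segment, control in grey and IL_27 in orange, with 95% Poisson intervals. By summed UMIs Tox is lower in IL_27 in Trbv4 cells and in cells with another or no segment. The Trbv16 points of IL_27 rest on 7 cells.

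Nr4a3 (chr4:48045153-48086447), an early response nuclear receptor induced by antigen receptor signals, had the highest ratio of the 9 factors counted in Tregs. Its level was 113 CPM (98.5 to 129) in control and 224 (204 to 245) in IL_27, a ratio of 1.98 (1.68 to 2.34). A UMI was seen in 42.8% and 53.1% of Tregs, and in 10.5% (6.86 to 15.3) in control and 21.9% (17.4 to 26.95) in IL_27 after thinning to 1000 UMIs. The share was thus higher in IL_27 at equal depth too, with intervals apart, and the ratio was 1.89 without the top cell of each matrix. In CD4 cells without Foxp3 Nr4a3 was at 173 and 175 CPM and in NK cells at 316 and 328 CPM.

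In CD8 cells Nr4a3 was at 86.2 CPM (75.7 to 97.7) in control and 132 (109 to 158) in IL_27, a ratio of 1.53 (1.22 to 1.92). A single IL_27 cell held 24 of the 119 Nr4a3 UMIs and 23 of the 110 Nr4a2 UMIs, and its barcode was 1 of those found in both matrices. Without the shared barcodes the log2 ratio of Nr4a3 was 0.31, beside 0.62 with them, and was under 1.5-fold. With cells thinned before the classes were set it was 0.03. The log2 ratio of Nr4a2 went from -0.22 to -0.56 without the shared barcodes, and was -1.23 with cells thinned before the classes were set, on 36 and 5 UMIs.

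Outside T cells Nr4a3 was higher in IL_27 in several classes and not in all. Neutrophil-like cells had 364 and 669 CPM, a ratio of 1.84 (1.77 to 1.92), and 3 of 7 counted factors were called there, Nr4a2 and Nr4a3 higher and Bach2 lower, against 22.3% of 11175 genes. Bach2 there had 15 and 5 UMIs and a ratio of 0.580 (0.165 to 1.68), an interval that spans 1. Mature dendritic-like cells had the highest level of the classes with at least 20 cells, 1045 and 1333 CPM, and tumour-like cells, the class with the most UMIs per cell, had 1.34 and 2.25 CPM. Fibroblast-like cells had 55.9 and 127 CPM, and 3 of 4 counted factors were higher there (Nr4a2, Nr4a3 and Id2), against 29.1% of 7669 genes. Plasmacytoid-like cells had 149.9 and 95.6 CPM, with IL_27 the lower matrix at a ratio of 0.638 (0.362 to 1.12), an interval that spans 1. In Tregs the 6 neutrophil markers, all detected, summed to 505 and 497 CPM. The 6 mature dendritic markers, which include Ccr7 of T cells, summed to 585 and 859.6 CPM, with Fscn1 at 0 in control. The part of other cells' RNA in the Treg level of Nr4a3 was not tested.

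Tregs were split by a UMI of Il1rl1, which encodes the ST2 receptor, or Areg, which encodes amphiregulin, both known from tissue-repair Tregs. The set with either had 138 and 213 cells and the set without 91 and 96, at medians of 5604 and 4933 against 5466 and 4448 UMIs. In the set with, Nr4a3 was at 132 and 271 CPM, a ratio of 2.05 (1.70 to 2.49), where 21.9% of 8581 genes were called. In the set without it was at 84.1 and 95.5 CPM, a ratio of 1.14 (0.774 to 1.66), where 28.7% of 6857 genes were called. Nr4a3 was the 1 factor higher by 1.5-fold in the set with in both matrices, 1.57-fold and 2.84-fold. All factors but Tcf7, Id3 and Bach2 were counted, and 3.82% of 7435 genes were called in either direction. Whether the IL_27 ratio differed between the sets was not tested.

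Nr4a2 (chr2:57106830-57124003), the close relative of Nr4a3, was level in Tregs at 44.6 CPM (35.6 to 55.3) in control and 47.3 (38.4 to 57.6) in IL_27. CD8 cells had 142 and 122 CPM and NK cells 165 and 160.2 CPM, and CD8 cells exceeded Tregs 3.18-fold (2.50 to 4.07) in control and 2.58-fold (1.95 to 3.42) in IL_27. Dendritic-like cells had the highest level, 424 and 516 CPM. IL_27 exceeded control 1.61-fold (1.40 to 1.86) in neutrophil-like and 1.72-fold (1.53 to 1.92) in macrophage-like cells, and in the latter 2 of 6 counted factors were called, Nr4a2 higher and Batf lower, against 11.8% of 10866 genes. In Tregs without Il1rl1 or Areg the ratio was 2.46 (1.41 to 4.40), but 14 of the 39 IL_27 UMIs were in 1 cell, and 14 of 91 and 15 of 96 cells were positive.

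**Figure D5:**
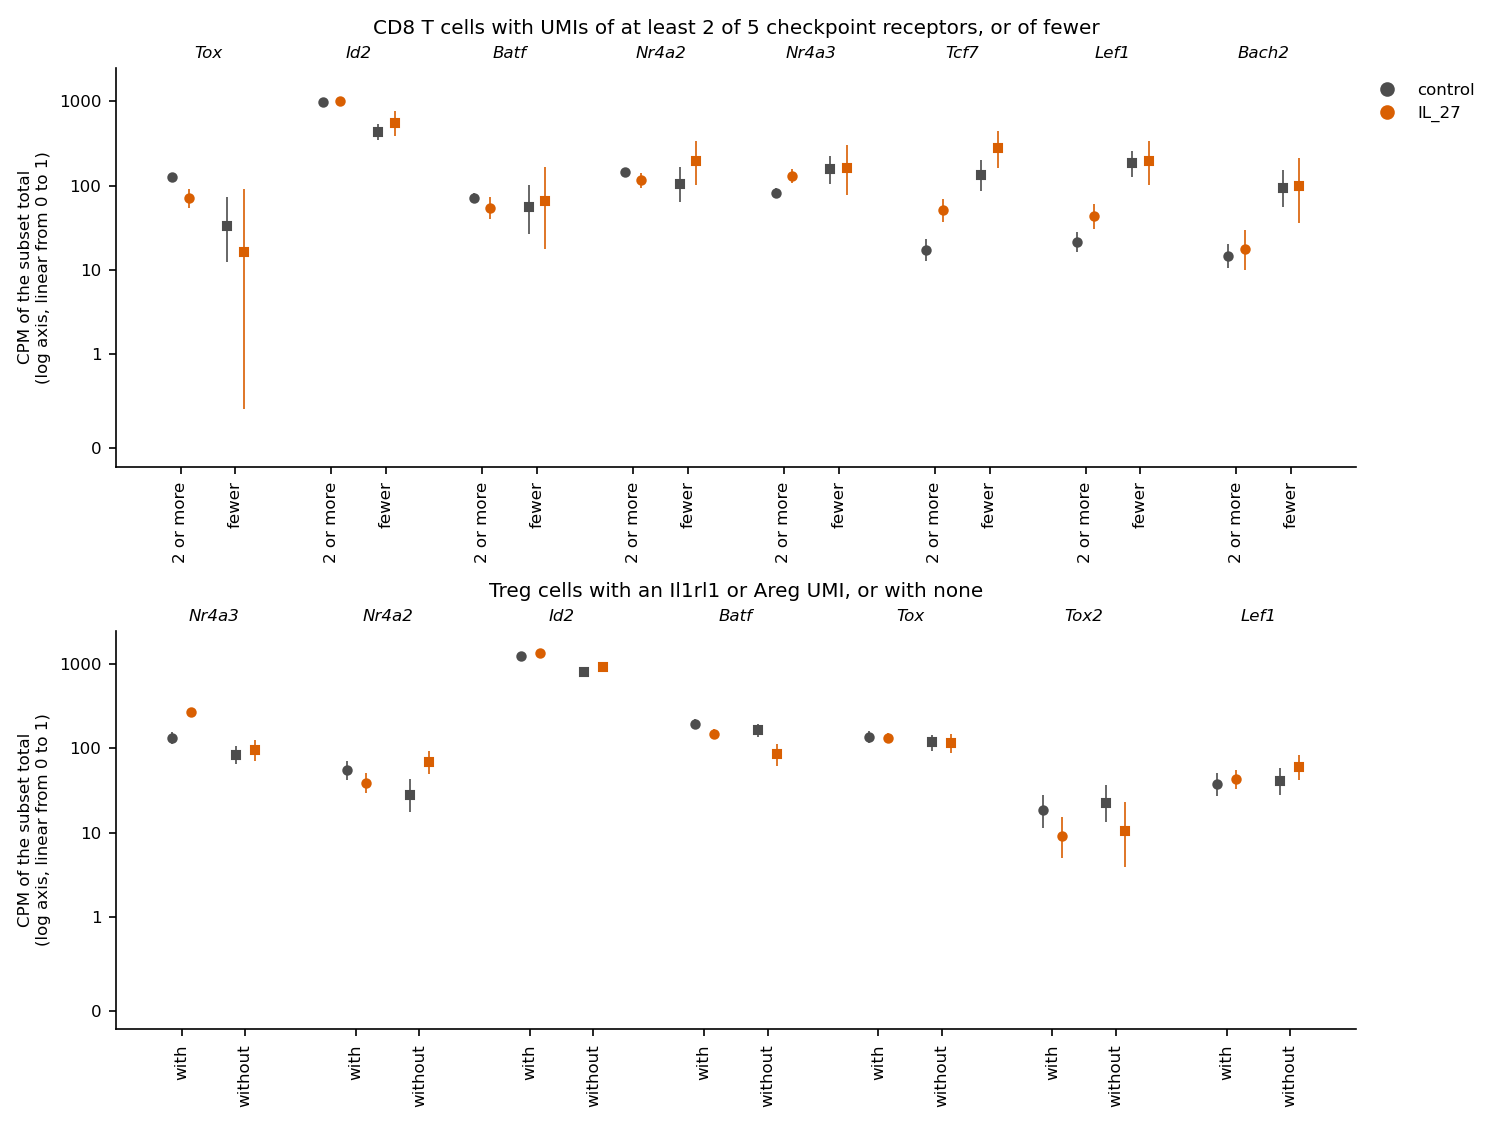
Level of factors (CPM, log axis that is linear from 0 to 1) in CD8 cells with and without checkpoint receptors and in Tregs with and without an Il1rl1 or Areg UMI, control in grey and IL_27 in orange, with 95% Poisson intervals. Tcf7 and Lef1 are higher in CD8 cells without receptors, and Nr4a3 stands at 271 CPM in IL_27 Tregs with Il1rl1 or Areg.

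Dividing cells, those with at least 2 UMIs over 5 cycling genes, had a lower CPM of several factors. In CD8 cells Tcf7, Lef1, Nr4a2 and Bach2 were lower in cycling cells by at least 1.5-fold in both matrices. All factors but Tox2 and Id3 were counted, and 11.5% of 5559 genes were called in either direction. Lef1 was 1.72-fold (1.10 to 2.72) lower in control and 4.42-fold (2.04 to 10.9) lower in IL_27. In Tregs Tox2, Lef1, Nr4a2, Nr4a3 and Id2 were lower in cycling cells in both. All factors but Tcf7, Id3 and Bach2 were counted there, and 22.7% of 7435 genes were called in either direction. Cycling cells had medians of 15015 and 12255 UMIs in the CD8 class and 16879 and 12696 in Tregs. The other cells had 6738 and 5516.5 in the CD8 class and 4988.5 and 4301 in Tregs. Cycling cells were thus deeper, and a lower CPM there need not mean fewer UMIs per cell. Among CD8 cells that were not cycling, the IL_27 over control ratio was 0.646 (0.448 to 0.911) for Tox and 2.06 (1.33 to 3.17) for Tcf7, where 28.1% of 7527 genes were called. In Tregs that were not cycling it was 2.16 (1.79 to 2.63) for Nr4a3 and 0.489 (0.263 to 0.886) for Tox2, where 23.6% of 8331 genes were called.

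Batf (chr12:85686669-85709087), an AP-1 family factor needed for effector Tregs and helper T cells, was lower in IL_27 in several classes. Tregs had 182 CPM (163 to 202) in control and 130.4 (115 to 147) in IL_27, a ratio of 0.717 (0.609 to 0.843) that is under the 1.5-fold limit. CD4 cells without Foxp3 had 152 CPM (109.7 to 204) in control and 45.97 (31.2 to 65.3) in IL_27, a ratio of 0.303 (0.185 to 0.493), with a UMI in 30.9% and 16.9% of cells. Unplaced T cells had a ratio of 0.610 (0.434 to 0.849). All factors but Id3 were counted there, and 3 were called, Tox2, Lef1 and Batf, each lower, against 28.6% of 7754 genes in either direction. Tox2 had 15 and 5 UMIs there and a ratio of 0.403 (0.115 to 1.17), an interval that spans 1. CD8 cells had 70.9 and 55.5 CPM, with a ratio whose interval spans 1, 0.783 (0.562 to 1.07). Neutrophil-like cells had 149.6 and 104 CPM, a ratio of 0.696 (0.638 to 0.758).

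Batf has the shortest transcript of the 10 genes. In Tregs, genes of the shortest of 5 length bins had a median log2 ratio of -0.21 and those of the longest 0.21. Nr4a3 and Bach2 were in the longest bin there and in CD8 cells, where its median was 0.19. Over the settings tried, which include removal of this trend, the log2 ratio of Nr4a3 ran from 0.83 to 1.66 in Tregs. In CD8 cells it ran from 0.03 to 0.87. With a trend on length, GC content and level removed, the log2 ratio of Batf was -0.17 in Tregs, beside -0.48, and -1.74 in CD4 cells, beside -1.72. The CD4 value was -1.02 without the top 8% of cells by doublet score.

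Id2 (chr12:25093799-25097140), an inhibitor of E proteins, differed by less than 1.5-fold between the groups in each T class and much between classes. Tregs had 1066 CPM (1019.5 to 1113) in control and 1245 (1198 to 1294) in IL_27, a ratio of 1.17 (1.10 to 1.24). CD8 cells had 955 and 970.1 CPM, NK cells 812 and 959 CPM and CD4 cells without Foxp3 539 and 547 CPM, lower than Tregs in both matrices. The ratio was 1.26 (1.13 to 1.41) in unplaced T cells and 0.669 (0.449 to 0.979) in gamma-delta T cells, on 98 and 39 UMIs. Over the settings tried the log2 ratio reached 0.62 in Tregs and ran from -0.90 to 0.57 in CD4 cells without Foxp3. Tumour-like cells had 39.8 and 39.9 CPM.

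Id3 (chr4:136143497-136145755), the sister inhibitor known from naive and memory T cells, was nearly missing from T cells. CD8 cells had 1 and 0 UMIs, where a count of 0 allows up to 3.33 CPM. Tregs had 15 and 2 UMIs, and 14 of the control UMIs were in 1 cell, so no ratio is given. Id3 was found instead in tumour-like cells, at 41.3 and 33.2 CPM, fibroblast-like cells, at 97.03 and 117 CPM, and plasmacytoid-like cells, at 88.8 and 64.9 CPM, which are the classes lowest in Id2. Over 13 classes in both matrices, 26 points, log2(CPM + 10) of Id2 and Id3 had a Pearson correlation of -0.870, which describes these points and has no p since they share libraries and depth.

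The lists of related genes that follow are to be read against the share of all counted genes called in each class, 20.2% in Tregs, 23.7% in CD8 cells and 32.3% in CD4 cells without Foxp3, and against the median log2 ratios of all genes given above. The counts include calls whose intervals span 1. Related regulators gave a mixed picture. Of 10 quiescence factors 2 were higher and 2 lower in Tregs (median log2 ratio 0.28), and 3 higher and 1 lower in CD8 cells (0.22). Klf2, which keeps T cells circulating, was at 0.382 (0.313 to 0.464) in Tregs and 0.511 (0.340 to 0.745) in CD8 cells, as ratios of IL_27 over control. Satb1, a chromatin organiser, was at 1.58 and 2.74, Bcl11b, a T cell identity factor, at 2.05 in Tregs, and Bcl6 and Myb, both known from stem-like CD8 cells, at 3.29 and 2.43 in CD8 cells. Of exhaustion-linked factors, 2 higher and 1 lower of 11 were called in Tregs (0.03), with Maf at 1.85, Ikzf2 at 1.62 and Tbx21 at 0.522. In CD8 cells 3 higher and 2 lower of 12 were called (0.24), with Prdm1 at 2.09, Maf at 2.50, Rbpj at 1.66, Nfatc1 at 0.590 and Tbx21 at 0.383. The E protein gene Tcf12 was at 1.91 in Tregs and 2.40 in CD8 cells, among 2 higher and 1 lower of 4 and 1 higher and 0 lower of 4 of the E protein list. In CD4 cells without Foxp3, 2 higher and 1 lower of 10 quiescence factors were called (0.10), 2 higher and 2 lower of 10 exhaustion-linked factors (0.24) and 2 higher and 0 lower of 3 E protein genes.

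AP-1 genes, the family of Batf, were called as 1 higher and 1 lower of 8 in Tregs, with Batf3 at 2.90 and Atf3 at 0.434. In CD8 cells 2 higher and 3 lower of 7 were called, with Jun at 1.55 and Junb at 0.648. Of these CD8 calls, 1 higher and 1 lower had intervals off 1. In CD4 cells without Foxp3, where Batf was lower, 0 higher and 5 lower of 7 AP-1 genes were called, with Jun at 0.345 and Junb at 0.617. Intervals were off 1 for 4 of the 5. Naive and memory genes were called as 3 higher and 0 lower of 7 in CD8 cells, with Il7r at 2.36 and Ccr7 at 1.52. In CD4 cells without Foxp3 they were called as 0 higher and 2 lower of 6. Intervals were off 1 for 2 of the CD8 calls and 1 of the CD4 calls. Inhibitory receptors were called as 0 higher and 2 lower of 7 in Tregs, with Havcr2 at 0.606 and Tigit at 0.630, and as 0 higher and 2 lower of 9 in CD8 cells, with Tigit at 0.650 and Cd244a at 0.506. In CD4 cells without Foxp3 they were called as 1 higher and 5 lower of 7, with a median log2 ratio of -0.92. Of these, 0 higher and 4 lower had intervals off 1.

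Over the same 26 points, the genes with a pattern most like that of Tox, by Pearson correlation, were Cd27 (0.979), Cd2 (0.979) and Zap70 (0.977). For Lef1 they were Xkr6 (0.977), Skap1 (0.975) and Faah (0.969), and for Bach2 Med12 (0.857), Gimap6 (0.840) and Prkcq (0.839). Tox2 was nearest to Ccr4 (0.891), Ccr8 (0.885) and Grb7 (0.881), of which the first pair encode chemokine receptors. Nr4a3 was nearest to Basp1 (0.873), Nfil3 (0.862) and Clec2d (0.841), Nr4a2 to Pdcd1lg2 (0.857), Serpinb9 (0.824) and Socs1 (0.817), Batf to Rhoh (0.908), Samd9l (0.869) and Chd2 (0.856), Id2 to Cotl1 (0.958), Bcl2a1d (0.908) and Cish (0.890) and Id3 to Dag1 (0.920), Slc44a1 (0.894) and Sh3pxd2a (0.887). Among the 10 factors the correlation was 0.888 for Tox with Lef1, 0.814 for Tcf7 with Lef1 and 0.562 for Nr4a2 with Nr4a3. Correlations over these points compare classes, and many points are classes outside T and NK cells, where Tox and Lef1 were nearly absent. They do not show whether factors vary together within a class. By summed UMIs in CD8 cells, the IL_27 over control ratio was 0.563 for Tox and 1.70 for Lef1. In unplaced T cells it was 0.762 (0.526 to 1.09) for Tox and 0.656 (0.468 to 0.911) for Lef1.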

How the data were processed

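The authors deposited raw UMI counts per gene and cell, 1 matrix for each group. Libraries were made with a 10x Genomics 5' kit, per the labels' protocols. The submitters' processing notes list mm10, Seurat 3.2.0 and Cell Ranger 4.0, with no role stated. The annotation release is not stated in what was used here. The matrices held 54049661 and 43868189 UMIs over 10784 and 10183 barcodes in control and IL_27.

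Cells with at least 500 UMIs, at least 200 genes and under 10% mitochondrial UMIs were kept. NK cells had no Cd3 UMI and at least 2 UMIs of Ncr1, Klrb1c and Klre1. CD8 cells had a Cd8a or Cd8b1 UMI and no Foxp3 or Cd4 UMI, and CD4 cells without Foxp3 had a Cd4 UMI and none of the others. The other 10 classes needed at least 3 of 6 markers. UMIs were summed per class and matrix, with exact Poisson intervals for levels, Clopper-Pearson for shares and conditional binomial for ratios. Only the ratio intervals were tested on simulated counts, which were Poisson draws with no spread between cells. That test could not show how the intervals hold where 1 cell carries many UMIs. Scrublet (scanpy 1.11.5) called 0 control and 167 IL_27 cells as doublets, so it was used only in an alternative that removed the top 8% of scores. Python 3.11.15, numpy 2.4.6 and scipy 1.17.1 were used.

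All 10 factors are named. Other genes are named where their ratio was at least 1.5 in either way with an interval off 1 in Tregs or CD8 cells, or where they define a split; the CD4 values of Jun and Junb follow from this. The 3 most alike genes were taken from 9581 with at least 50 UMIs in T and NK cells. The genes most like Tcf7 and the naive and memory list in Tregs are not reported here. The factors, lists and alternatives were chosen with earlier results of these data known.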

Additional observations from a re-analysis of the deposited data

Results flagged for a closer look

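Lef1 was higher in IL_27 in CD8 cells, with a ratio of 1.70 (1.18 to 2.44), and in CD4 cells without Foxp3, with 1.57 (1.05 to 2.42), and lower in T cells with no placing UMI or a mix of them, with 0.656 (0.468 to 0.911). The unplaced cells had 112 CPM (91.5 to 135) in control and 73.2 (55.6 to 94.6) in IL_27, with a UMI in 39.02% and 22.2% of 123 and 144 cells at medians of 4014 and 3662 UMIs. Each group is 1 matrix, so the difference between the classes was not tested.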

How the results depend on the processing

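The number of factors past 1.5-fold was 3 in Tregs, 4 in CD8 cells, 4 in CD4 cells without Foxp3 and 0 in NK cells. At a fold of 2 it was 1 in Tregs, 1 in CD8 cells and 1 in CD4 cells. With cells thinned to 1000 UMIs before the classes were set it was 3 in Tregs (Tox, Nr4a3 and Id2 higher), 1 in CD8 (Nr4a2 lower, none of the 4 reported), 0 in CD4 and 1 in NK cells (Id2 higher), where fewer factors had 20 UMIs. Without the 8% of cells with top doublet scores it was 1 in CD4 cells: Batf was past 1.5-fold, while log2 ratios were -0.37 for Tox, 0.54 for Lef1 and -0.56 for Bach2. In NK cells it was 1 with T and NK gates at 3 UMIs and 1 after removing the trend on length, GC and level. Of 375 log2 ratios of single factors over the 14 settings, 360 stayed within the reported interval. Several settings, such as removing shared barcodes or the top cell, keep most of the same UMIs. Their ratios had little room to move, so the 360 are a weak check. The fold of 2 gave no such ratios, and the setting without Il2ra or Ikzf2 UMIs covered CD4 cells alone. The setting that raised the minimum of UMIs leaves ratios out but cannot change them, so its ratios could not move. Of ratios past 1.5-fold, 1 changed sign, Tox in CD8 cells at 0.20 after thinning. Factors with under 20 UMIs after thinning were left out of these counts. Among them Tcf7 in CD8 cells also went the other way, at 56.2 and 17.2 CPM on 10 and 1 UMIs. So did Bach2 in CD4 cells without Foxp3, on 0 and 5 UMIs. Of ratios nearer 1, 20 changed sign, among them Tox in Tregs at 0.90 after thinning, Nr4a2 in CD4 cells at 0.57 without top doublet scores and Id2 at -0.90 in CD4 cells without an Il2ra or Ikzf2 UMI. The cause was not tested. No paired analysis was possible because each group is 1 matrix, and no replicate could be left out for the same reason. Depth limits Tcf7, Id3, Tox2 and Bach2, with under 40 UMIs per matrix in Tregs.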
